A study of Mus musculus with 32 samples.

Results

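Cytochrome P450 genes were followed in 4 tissues of Nox4 knockout mice. A gene was taken as a P450 when its symbol in the probe annotation consisted of Cyp, a family number, a subfamily letter and a member number, which gave 26 genes on 27 probes, of 9030 named genes on 20794 probes. The knockout group held 4 male Nox4 -/- mice on a C57BL/6 background, aged 17 weeks, and brain, kidney, muscle and pancreas came from the same 4 animals. They were set against a pool of RNA from wild-type males of the same strain and age. The labels of the pool list 4 mice, whereas the labelling protocol speaks of a pool of 6, so its size is not settled. The labels do not say how the allele was made. Each tissue of each animal was hybridised on 2 cDNA arrays with the dyes exchanged, which gave 32 arrays, and each value is a log2 ratio, with the knockout likely on top and the pool below. No named probe carried the symbol Nox4 (0 of 12771), so the targeted transcript checks neither the labels nor the direction.

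P450 enzymes are heme proteins that insert an oxygen atom into small lipophilic molecules, with electrons delivered by NADPH cytochrome P450 reductase in the endoplasmic reticulum or by ferredoxin in mitochondria. Enzymes of the Cyp2 and Cyp3 families oxidise drugs and other foreign compounds, the Cyp4 family hydroxylates fatty acids and eicosanoids, and further families make steroid hormones, bile acids and oxysterols or clear retinoic acid. Nox4 is an NADPH oxidase that releases hydrogen peroxide and is abundant in the kidney. Sorted by family and subfamily, the 26 genes formed a group of 12 xenobiotic enzymes, some of which also act on steroids or bile acids, 7 fatty acid and eicosanoid enzymes, 3 enzymes of steroid hormone synthesis, 3 cholesterol and bile acid enzymes and 1 retinoid enzyme.

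Arrays carried 19815 to 20684 values with medians between −0.07 and 0.05. The median absolute deviation of an array over all genes was 0.081 to 0.31 in brain, 0.078 to 0.23 in kidney, 0.13 to 0.30 in muscle and 0.26 to 0.37 in pancreas, and the widest brain array was the Cy3 array of animal 4. Values over 8 in size (1844 of 655162) were all above 0 where the knockout was labelled with Cy5 and all below 0 where it was labelled with Cy3. Over probes, the array pair of an animal gave correlations of −0.37 to 0.040, while arrays of 1 tissue and 1 dye orientation correlated at 0.059 to 0.25. Averaging the 2 arrays of an animal cancels a dye effect only if both ratios run the same way, so results with the Cy3 arrays turned are named where they change a call. If both ratios do run the same way as deposited, a turned mean measures the difference between the dye orientations and not the knockout. Only ratios are at hand, so the levels of the tissues' defining markers could not be looked at. Whether a P450 gene was expressed above background in a tissue could not be looked at either. In pieces of whole tissue, fewer cells of a type and less RNA per cell cannot be told apart.

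The mean log2 ratio lay within 0.1 of 0 for 24 of 25 P450 genes in brain, 20 of 25 in kidney, 18 of 25 in pancreas and 11 of 25 in muscle. Of these 25, the ones that could be tested, 0 passed an adjusted p of 0.05 in any tissue by limma, where 0.0% of all genes did so in each tissue. At an unadjusted p under 0.05 there were 0 in brain (all genes, 4.13%), 4 in kidney (9.28%), 1 in muscle (7.29%) and 1 in pancreas (2.91%). Mean log2 ratios spanned −0.076 to 0.11 in brain, −0.18 to 0.13 in kidney, −0.35 to 0.14 in muscle and −1.99 to 0.70 in pancreas. The low end in pancreas was 1 array value of Cyp4f14. The median SD between animals over the P450 genes was 0.084 in kidney, 0.12 in brain, 0.16 in muscle and 0.23 in pancreas, so most means were smaller than the spread between animals. The sign was shared by all animals measured for 3 P450 genes in brain (all genes, 15.9%), 6 in kidney (20.1%), 5 in muscle (19.5%) and 1 in pancreas (11.3%). Over single arrays, 0 P450 genes were above 0 on all 8 arrays of a tissue, where the share of all genes was 0.0969% in pancreas, 0.404% in brain, 0.558% in kidney and 1.56% in muscle. Below 0 on all 8 arrays there was 1 in kidney (0.899%), 1 in muscle (0.552%), 0 in brain (0.496%) and 0 in pancreas (0.142%).

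**Figure D1:**
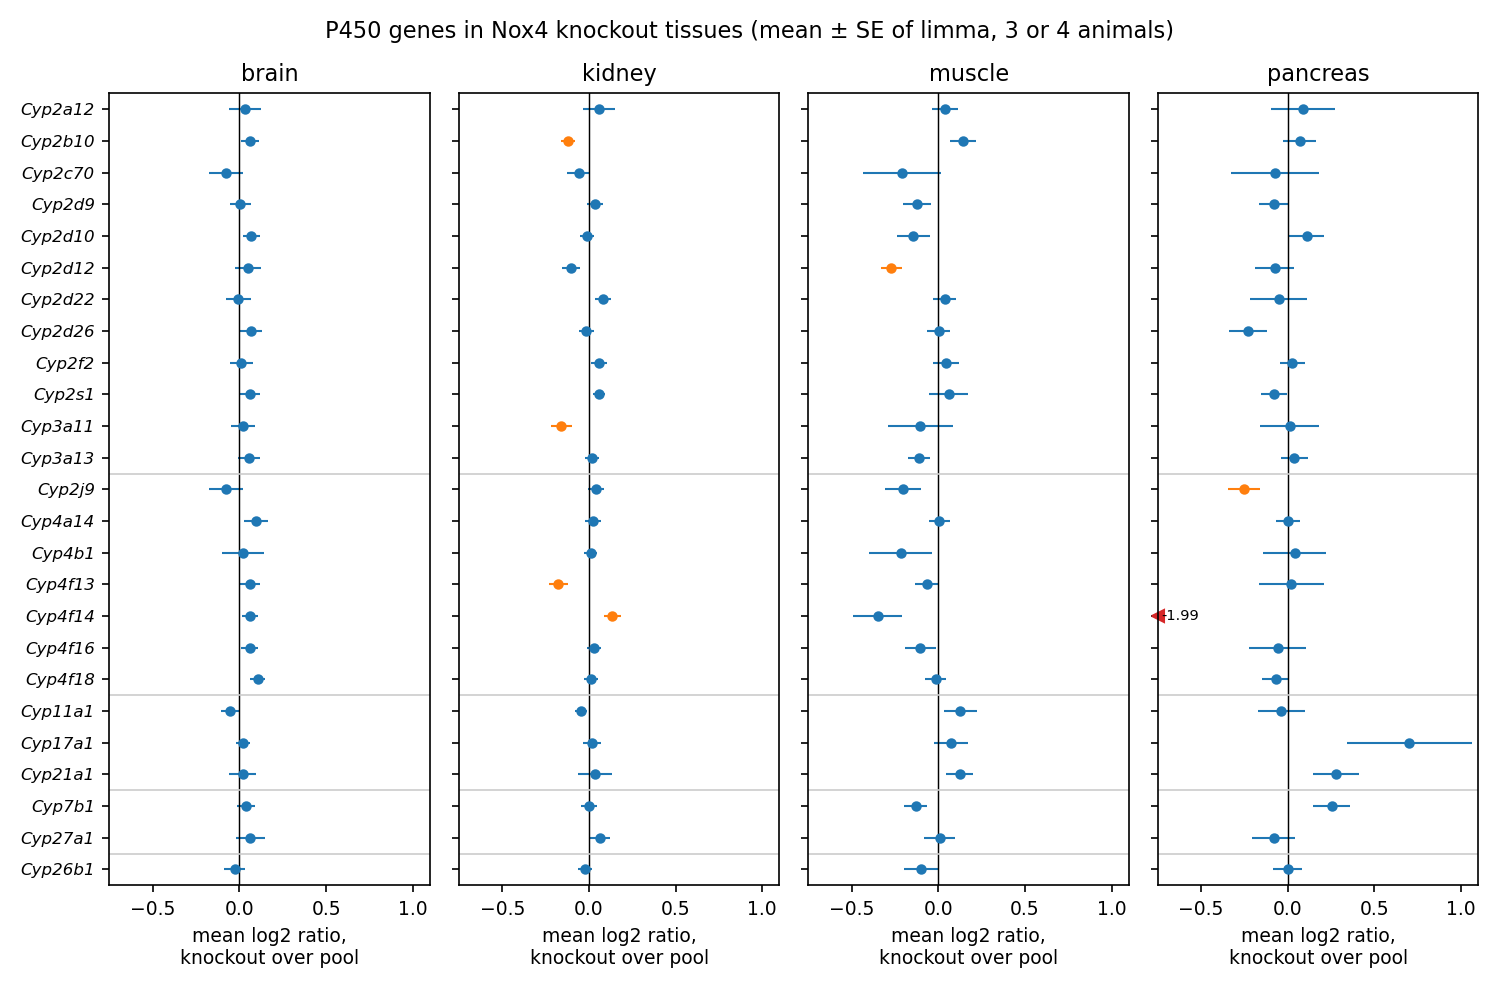
Mean log2 ratio (x axis, knockout over pool) of the 25 tested P450 genes (rows, by enzyme group) in each tissue, with the standard error of limma as bars and genes with an unadjusted p under 0.05 in orange. Within 0.1 of 0 lie 24 points in brain and 11 in muscle, the spread is widest in pancreas, and the arrow marks Cyp4f14 in pancreas, whose mean of −1.99 lies off the axis.

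As deposited, the split of the P450 genes around 0 was furthest from that of all genes in brain. In brain 20 of 25 P450 genes had a mean above 0 (all genes, 53.4%), with a median of 0.039 against 0.0074 over all genes. Animal 4, which gave the widest brain array, had 20 P450 genes above 0, and animals 1, 2 and 3 had 14, 13 and 16. Without animal 4 the count was 16 of 25, with each array centred and scaled to 1 spread it was 16, and after turning the Cy3 arrays it was 12. In kidney 16 of 25 were above 0 (51.5%), in muscle 11 of 25 (41.6%) and in pancreas 12 of 25 (50.4%), and after turning the Cy3 arrays each of these counts was 13 of 25. In pancreas 16 of 24 were above 0 without animal 1 and 8 of 24 without animal 2. Counts above 0 and ranks of means below hold for the signs as deposited. The shares over all genes given here also apply to the counts above 0 of groups, lists and markers below. The medians of the P450 genes were 0.017 in kidney, −0.066 in muscle and −0.00025 in pancreas, against 0.0026, −0.024 and 0.00075 over all genes of these tissues.

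Among the 12 xenobiotic enzymes, 10 were above 0 in brain (all genes, 53.4%). In each of kidney (51.5%), muscle (41.6%) and pancreas (50.4%) there were 6. With the Cy3 arrays turned there were 7 in brain, 8 in muscle and 6 in both kidney and pancreas, and without animal 3 the muscle count was 3 of 12. Cyp2b10, an enzyme inducible by phenobarbital through the receptor CAR, had 1 sign on every kidney array. On the arrays with the knockout in Cy5 its log2 ratios in animals 1 to 4 were −0.28, −0.15, −0.071 and −0.091, and with the knockout in Cy3 they were −0.012, −0.17, −0.017 and −0.17. All 8 values were below 0, for this P450 gene alone in kidney. The mean was −0.12 ± 0.039 (SE, n = 4), with an adjusted p of 0.522 by limma, and −0.029 was found on turning the Cy3 arrays. In muscle Cyp2b10 was the P450 gene of highest mean, at 0.14 ± 0.075 (SE, n = 4), and 3 of 4 animals were above 0 there. With the Cy3 arrays turned Cyp2b10 was at 0.061 in muscle and the highest P450 mean was that of Cyp4f13, at 0.46.

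Cyp3a11, the main drug-oxidising Cyp3a enzyme of mouse liver and a target of the receptor PXR, had log2 ratios in kidney of 0.11, 0.67, −0.066 and −0.35 on the Cy5 arrays and −0.55, −0.87, 0.068 and −0.29 on the Cy3 arrays of animals 1 to 4. The values of animals 1 and 2 changed sign between the 2 arrays, while animal 4 was below 0 on both. The mean was −0.16 ± 0.060 (SE, n = 4, adjusted p = 0.525 by limma). Its relative Cyp3a13 averaged 0.020 ± 0.040 (SE, n = 4) in kidney. In muscle Cyp3a13 averaged −0.11 ± 0.063 (SE, n = 4) and lay below 0 in all 4 animals.

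The promoters of the 4 P450 genes with an unadjusted p under 0.05 in kidney are shown as context for these values. They are the 250 bases before the RefSeq start in GRCm38.p6, 5′ to 3′ on the strand of the gene. Cyp2b10 lies at chr7:25897408-25897657 on the plus strand, Cyp3a11 at chr5:145879855-145880104, Cyp4f13 at chr17:32947362-32947611 and Cyp4f14 at chr17:32917357-32917606, the last 3 on the minus strand. Cyp4f14 has 4 starts in the table and the most upstream is shown. Capitals mark exact matches, on either strand, to the nuclear receptor half-site AGGTCA, the core GCGTG bound by the aryl hydrocarbon receptor with ARNT, the antioxidant response element core TGACNNNGC and the TATA box TATAAA.
Cyp2b10: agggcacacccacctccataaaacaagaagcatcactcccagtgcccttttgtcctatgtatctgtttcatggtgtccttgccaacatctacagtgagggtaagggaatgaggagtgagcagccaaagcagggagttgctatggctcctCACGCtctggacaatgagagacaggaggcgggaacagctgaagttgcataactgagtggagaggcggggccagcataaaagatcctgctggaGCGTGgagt
Cyp3a11: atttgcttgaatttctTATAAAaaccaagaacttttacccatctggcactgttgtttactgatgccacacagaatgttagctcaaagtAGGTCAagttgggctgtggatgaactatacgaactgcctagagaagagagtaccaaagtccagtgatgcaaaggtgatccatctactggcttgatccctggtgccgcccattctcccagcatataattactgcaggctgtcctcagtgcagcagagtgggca
Cyp4f13: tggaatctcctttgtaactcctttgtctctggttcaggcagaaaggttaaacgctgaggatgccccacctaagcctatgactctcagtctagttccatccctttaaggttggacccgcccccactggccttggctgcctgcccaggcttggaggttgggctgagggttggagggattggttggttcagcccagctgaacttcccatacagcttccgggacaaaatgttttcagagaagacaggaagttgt
Cyp4f14: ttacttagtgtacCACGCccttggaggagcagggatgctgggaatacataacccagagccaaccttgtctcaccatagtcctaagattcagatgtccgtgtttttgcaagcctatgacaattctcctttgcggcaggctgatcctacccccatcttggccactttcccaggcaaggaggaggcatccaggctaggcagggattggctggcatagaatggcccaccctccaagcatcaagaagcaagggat
Cyp2b10 held the GCGTG core on both strands, at −101 and −9 from the start (CACGC and GCGTG), Cyp3a11 held AGGTCA at −162 and TATAAA at −234, Cyp4f14 held CACGC at −237, and Cyp4f13 held none of the 4 motifs in this window. The 32851 promoters in the table were each read over the 250 bases before the start. AGGTCA was found in 14.0%, GCGTG in 28.2%, TGACNNNGC in 10.2% and TATAAA in 12.4% of the promoters there. Of the 19 P450 genes with a promoter there, 4, 4, 2 and 7 held these motifs. TGACCT, which is AGGTCA on the other strand, can be the start of a TGACNNNGC match. The arrays did not measure binding, and a match is a description of the letters only.

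Cyp2d12 belongs to the Cyp2d subfamily, a cluster on chromosome 15 related to human CYP2D6, the debrisoquine hydroxylase. In muscle its log2 ratios in animals 1 to 4 were −0.16, −0.20, −0.26 and −0.44 on the Cy5 arrays and −0.30, −0.20, −0.39 and −0.23 on the Cy3 arrays. All 8 arrays were below 0, and no animal stood apart. The mean of −0.27 ± 0.060 (SE, n = 4) equals a ratio of 0.828, and the adjusted p was 0.538 by limma. Turning the Cy3 arrays gave 0.0073. Other low means in muscle were not as even. Cyp2c70, a liver enzyme that makes the muricholic acids of the mouse, averaged −0.21 ± 0.23 (SE, n = 4) with animals at 0.094, −0.98, −0.31 and 0.36.

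The 5 Cyp2d genes did not share a direction across tissues. In brain 4 of 5 were above 0 (all genes, 53.4%), and in kidney (51.5%) and muscle (41.6%) 2 of 5. The 1 of 5 above 0 in pancreas (50.4%) was Cyp2d10. In pancreas the count was 2 of 5 without animal 1 and 3 of 5 without animal 3. In muscle it was 1 of 5 without animal 1, 2 or 3, and in kidney 4 of 5 without animal 3 and 3 of 5 without animal 4 or on the Cy5 arrays alone. With arrays centred and scaled the brain count was 3 of 5, as without animal 1 or 4, and after turning the Cy3 arrays 4 were above 0 in muscle and 2 in each other tissue. Cyp2d10 averaged 0.069 ± 0.051 in brain and 0.11 ± 0.10 in pancreas (SE, n = 4 each), among the 3 highest P450 means with 4 animals in both tissues. Cyp2d22 averaged 0.080 ± 0.046 (SE, n = 4) in kidney, where all 4 animals were above 0. Cyp2d9, a male-specific steroid 16-alpha hydroxylase of mouse liver, averaged −0.13 ± 0.081 (SE, n = 4) in muscle and lay below 0 in all 4 animals there.

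Cyp2d26 was the only P450 gene with 2 probes, and these disagreed. In pancreas the animals were at −0.42, −0.31, −0.29 and 0.098, so 3 of 4 were below 0, and the mean was −0.23 ± 0.11 (SE, n = 4, adjusted p = 0.991 by limma). Over the 8 pancreas arrays the probes averaged −0.36 and −0.096, and over the 8 brain arrays the same 2 probes averaged 0.24 and −0.11. The symbols are those of the probe annotation. The members of the Cyp2d and Cyp4f subfamilies are similar in sequence, and cross-hybridisation of the cDNA probes was not tested.

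Cyp2f2, Cyp2s1 and Cyp2a12 had means within 0.1 of 0 in every tissue, though single animals lay further out. Cyp2f2, which activates naphthalene in lung airways, averaged between 0.012 and 0.060 in the 4 tissues. Cyp2s1, an epithelial enzyme, averaged 0.058 ± 0.036 (SE, n = 4) in kidney with all 4 animals above 0, at 0.096, 0.065, 0.045 and 0.029, which was the smallest SE but 1 among kidney P450 genes. Cyp2a12, a bile acid hydroxylase of mouse liver, averaged 0.031 to 0.086 in the 4 tissues with animals on both sides of 0 in each. Cyp2c70 had 1 of the 3 lowest P450 means in brain, at −0.076 ± 0.097 (SE, n = 4), where animal 4 was at −0.38 and animal 1 at 0.16.

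The 7 fatty acid and eicosanoid enzymes lay on different sides of 0 in different tissues. In brain 6 of 7 were above 0 (median 0.061) and in kidney 6 of 7 (0.025). In pancreas 3 of 7 (−0.059) and in muscle 1 of 7 (−0.10) were above 0. Over all genes 53.4%, 51.5%, 50.4% and 41.6% were above 0 in these tissues, in that order. The median SD between animals in this group was 0.10 in brain, 0.082 in kidney, 0.39 in pancreas and 0.19 in muscle. With the Cy3 arrays turned, 4 of 7 were above 0 in both brain and muscle and 5 of 7 in both kidney and pancreas, with a pancreas median of 0.44. Without animal 2, 0 of 7 were above 0 in pancreas and in muscle, without animal 3 these counts were 1 and 2, and without animal 4 the pancreas count was 2. All 6 genes of family 4 lay above 0 in brain, a count that was 5 of 6 without animal 3, without animal 4 or with arrays centred and scaled, 4 of 6 on the Cy5 arrays alone, and 3 of 6 with the Cy3 arrays alone or turned. All 4 Cyp4f genes lay below 0 in muscle, a count that was 3 of 4 without animal 3 or with arrays centred and scaled, and 1 of 4 on the Cy5 arrays alone or with the Cy3 arrays turned.

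Cyp4f18, the enzyme of mouse neutrophils that oxidises leukotriene B4, was the P450 gene of highest mean in brain. Its animals were at 0.045, 0.15, 0.11 and 0.11, 7 of 8 arrays were above 0, and the mean was 0.11 ± 0.044 (SE, n = 4, adjusted p = 0.773 by limma). All 4 animals were above 0 and animal 1 was the lowest, and with the Cy3 arrays turned the mean was −0.041. Cyp4a14, a fatty acid hydroxylase controlled by PPAR alpha, averaged 0.095 ± 0.070 (SE, n = 4) in brain, where animal 4 was at 0.31 and the other animals between −0.013 and 0.080.

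Cyp4f13 and Cyp4f14, neighbours on chromosome 17, lay on opposite sides of 0 in kidney. Cyp4f13 had log2 ratios of 0.045, 0.76, −0.048 and −0.14 on the Cy5 arrays and −0.77, −0.99, −0.12 and −0.14 on the Cy3 arrays of animals 1 to 4. Its animal means were all below 0, but animals 1 and 2 changed sign between their 2 arrays, from the Cy5 to the Cy3 array. The mean was −0.18 ± 0.057 (SE, n = 4, adjusted p = 0.517 by limma). Cyp4f14, which oxidises leukotriene B4 in the mouse, had log2 ratios of 0.22, −0.026, 0.12 and 0.022 on the Cy5 arrays and 0.28, 0.40, 0.023 and 0.050 on the Cy3 arrays. Of these, 7 of 8 were above 0, and the mean was 0.13 ± 0.049 (SE, n = 4, adjusted p = 0.525 by limma).

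In muscle Cyp4f14 had the lowest P450 mean, −0.35 ± 0.14 (SE, n = 4, adjusted p = 0.661 by limma), with animals at 0.013, −0.13, −0.60 and −0.69. Animals 3 and 4 were well below 0 and animal 1 was not. After the Cy3 arrays were turned, Cyp4f14 was at −0.11 in muscle, and Cyp4a14 (−0.35) and Cyp27a1 (−0.33) had the lowest means. Cyp4b1, which activates protoxins in rodent lung, averaged −0.22 ± 0.18 (SE, n = 4), and that value rested on animal 3, at −1.89 on its Cy5 array and 0.11 on its Cy3 array. Without animal 3 the Cyp4b1 mean was 0.0077. In pancreas the Cyp4f14 mean of −1.99 held the value −16.01 on the Cy3 array of animal 1; the other 7 arrays lay between −0.49 and 0.95, and with values over 8 in size taken as missing the mean was 0.044.

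Cyp2j9, an arachidonic acid epoxygenase and hydroxylase known from mouse brain, was the only P450 gene with an unadjusted p under 0.05 in pancreas. Its log2 ratios there were 0.42, 0.46, 0.26 and −0.037 on the Cy5 arrays and −1.19, −0.77, −0.41 and −0.74 on the Cy3 arrays of animals 1 to 4. The dye orientations did not overlap, since 3 of 4 Cy5 arrays were above 0 and all 4 Cy3 arrays lay further below 0 than the other Cy5 array. The mean was −0.25 ± 0.091 (SE, n = 4, adjusted p = 0.991 by limma), all 4 animal means were below 0, and turning the Cy3 arrays gave 0.53 ± 0.11 (adjusted p = 0.0441 by limma). In muscle it averaged −0.20 ± 0.10 and in brain −0.076 ± 0.098 (SE, n = 4 each), and in brain the 2 arrays of animal 4 were the lowest, at −0.33 and −0.49.

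**Figure D2:**
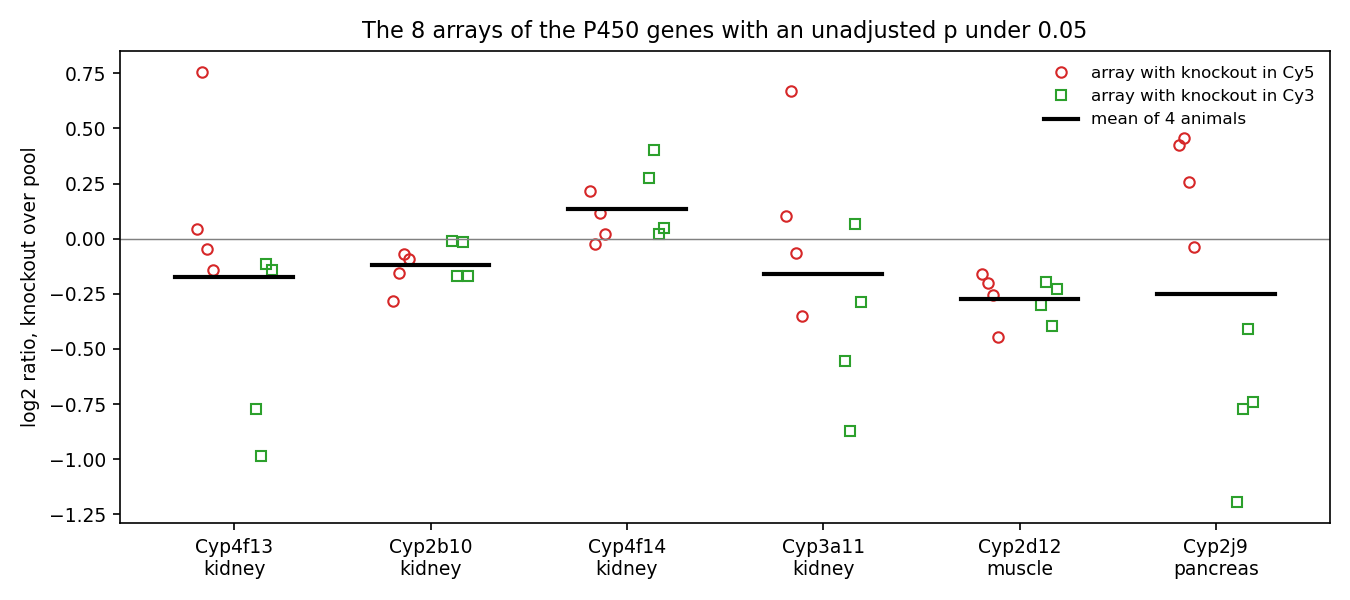
Log2 ratio (y axis, knockout over pool) on each of the 8 arrays for the 6 combinations of P450 gene and tissue with an unadjusted p under 0.05, with circles for the knockout in Cy5, squares for the knockout in Cy3 and bars for the mean of 4 animals. Cyp2b10 in kidney and Cyp2d12 in muscle are below 0 on all 8 arrays, whereas the Cy5 and Cy3 arrays of Cyp2j9 in pancreas lie mostly on opposite sides of 0.

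The 3 steroid hormone enzymes act in the adrenal gland and gonads, and their ratios spread widely in pancreas. Cyp17a1, the 17-alpha hydroxylase and lyase, had animals at −0.025, 0.47 and 1.66 in pancreas, with animal 4 left out for want of a Cy3 value, and a mean of 0.70 ± 0.36 (SE, n = 3, adjusted p = 0.991 by limma). The Cy5 value of animal 3 was 2.43 and that of animal 4, not used in the mean, was −1.73. Cyp21a1, the 21-hydroxylase, had the highest pancreas mean among P450 genes with 4 animals, 0.28 ± 0.13 (SE, n = 4, adjusted p = 0.991 by limma). Its animals were at 0.46, −0.12, 0.23 and 0.54, and the Cy3 values alone ran between −1.34 and 1.92. Cyp11a1, the side-chain cleavage enzyme that makes pregnenolone, averaged −0.037 ± 0.13 (SE, n = 4) there.

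All 3 steroid genes averaged above 0 in muscle, with Cyp11a1 at 0.13 ± 0.096, Cyp21a1 at 0.12 ± 0.079 and Cyp17a1 at 0.073 ± 0.099 (SE, n = 4 each), a count that was 2 of 3 without animal 2 or on the Cy5 arrays alone and 1 of 3 with the Cy3 arrays turned. Cyp21a1 was above 0 in all 4 animals of muscle, between 0.015 and 0.34. In brain Cyp11a1 averaged −0.055 ± 0.055 (SE, n = 4), among the 3 lowest P450 means, with animal 3 above 0. In kidney it averaged −0.044 ± 0.036 (SE, n = 4) and all 4 animals were below 0, at −0.059, −0.067, −0.030 and −0.021. Of 7 measured markers of the adrenal cortex other than P450 genes, 2 were above 0 in pancreas (median −0.047) and 3 in kidney (median −0.0055), and their part in the steroid gene values was not tested.

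Of the cholesterol and bile acid enzymes, Cyp7b1, which hydroxylates oxysterols at position 7 alpha, had pancreas animals at 0.25, 0.35, 0.45 and −0.040. Animals 1 to 3 were above 0 on both arrays and animal 4 was split between its arrays. The mean was 0.25 ± 0.11 (SE, n = 4, adjusted p = 0.991 by limma). In muscle its animals were at −0.064, −0.22, −0.037 and −0.21, all below 0, with a mean of −0.13 ± 0.065 (SE, n = 4). Cyp27a1, the mitochondrial sterol 27-hydroxylase, averaged 0.063 ± 0.062 (SE, n = 4) in kidney, among the 3 highest P450 means there, with animals at 0.24, 0.10, −0.094 and 0.00050.

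Cyp39a1, the 24-hydroxycholesterol 7-alpha hydroxylase, had a value on only 5 or 6 of the 8 arrays of each tissue and never on both arrays of 3 animals, so it was not tested. It was listed at 16.40 on the Cy5 array of brain animal 4, at −16.70 and −16.23 on the Cy3 arrays of kidney animals 1 and 4, and at 16.47 on the Cy5 array of pancreas animal 4. Its other values lay between −2.99 and 2.14. Cyp26b1, which clears retinoic acid, was the 1 retinoid enzyme and averaged −0.097 in muscle, −0.027 in brain, −0.021 in kidney and −0.00025 in pancreas. Its brain value had animal 4 at −0.20 and the other animals between −0.0025 and 0.074.

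The ratios were next compared between tissues in 1 fit over all 4. By limma 0 of 25 P450 genes passed an adjusted p of 0.05 in any of the 6 pairs, where all genes gave 0.0% for brain minus kidney, 0.461% for brain minus muscle, 0.0% for brain minus pancreas, 0.0123% for kidney minus muscle, 0.0% for kidney minus pancreas and 0.578% for muscle minus pancreas. At an unadjusted p under 0.05 there were 0, 2, 4, 1, 3 and 4 P450 genes in these pairs, where all genes gave 2.92%, 9.23%, 8.29%, 6.23%, 5.67% and 12.8%. With the animal as a block, which pairs the tissues of a mouse, 0 P450 genes passed in each pair. An unadjusted p under 0.05 was then reached by 0, 1, 4, 2, 4 and 2 P450 genes. Over all 16257 genes those numbers were 451, 1416, 1328, 968, 874 and 1991. Over all genes the calls in brain minus muscle were 0 with the block, against 75 without it. They were 0 against 2 in kidney minus muscle and 21 against 94 in muscle minus pancreas. Both fits share 1 spread over the 4 tissues. The median SD over all genes was 0.099 in kidney, 0.13 in brain, 0.17 in muscle and 0.22 in pancreas. With only the 2 tissues of a pair fitted, 2, 2, 1, 2, 1 and 1 P450 genes had an unadjusted p under 0.05. Over all genes those numbers were 1287, 1554, 776, 1536, 718 and 1027 of 16305 to 16687, and 0 genes passed the adjusted threshold in each pair. The F test over the 4 tissues called 0 P450 genes (all genes, 0.0246%) and gave 1 an unadjusted p under 0.05 (8.65%).

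That gene was Cyp7b1, with an adjusted p of 0.349 in limma's F test. Its log2 ratio in muscle minus that in pancreas was −0.38 ± 0.098 (SE, n = 4 each, adjusted p = 0.0934 by limma), the smallest adjusted p of any P450 gene in any pair. The muscle animals lay at or below −0.037 and the pancreas animals at or above −0.040, so the groups met at 1 animal of each. With the Cy3 arrays turned the difference was −0.0093. Brain minus pancreas gave −0.21 ± 0.098 and kidney minus pancreas −0.25 ± 0.098 (SE) for the same gene.

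Cyp2d12 in brain minus muscle was 0.32 ± 0.11 (SE, n = 4 each, adjusted p = 0.348 by limma), with brain animals at −0.18, 0.027, 0.21 and 0.14 and the muscle animals between −0.34 and −0.20. The groups did not overlap, but brain animal 1 lay close to the highest muscle animal. Cyp2b10 in kidney minus muscle was −0.26 ± 0.093 (SE, n = 4 each, adjusted p = 0.530 by limma), with kidney animals between −0.16 and −0.044 and muscle animals at 0.11, 0.22, 0.28 and −0.031. These groups too did not overlap, with muscle animal 4 closest to the kidney values. Cyp2d12, Cyp2b10 and, below, Cyp4f18 were named for a small F test p. The share of all genes whose groups do not overlap is not given here, so the separation is a description only.

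Cyp4f18 in brain minus pancreas was 0.18 ± 0.066 (SE, n = 4 each, adjusted p = 0.563 by limma), and all 4 brain animals lay above all 4 pancreas animals, which were at 0.0055, −0.22, −0.036 and −0.029. Cyp2d26 in brain minus pancreas was 0.30 ± 0.10 (SE, n = 4 each, adjusted p = 0.538 by limma), where pancreas animal 4 lay among the brain animals. Cyp17a1 in brain minus pancreas was −0.68 ± 0.28 (SE, n = 4 and 3), and the lowest pancreas animal lay below all brain animals. The other differences with an unadjusted p under 0.05 were those of Cyp17a1 and Cyp2j9 in kidney minus pancreas, of Cyp2d10, Cyp2d26 and Cyp17a1 in muscle minus pancreas, and of Cyp3a13 in brain minus muscle, between −0.68 and 0.30.

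**Figure D3:**
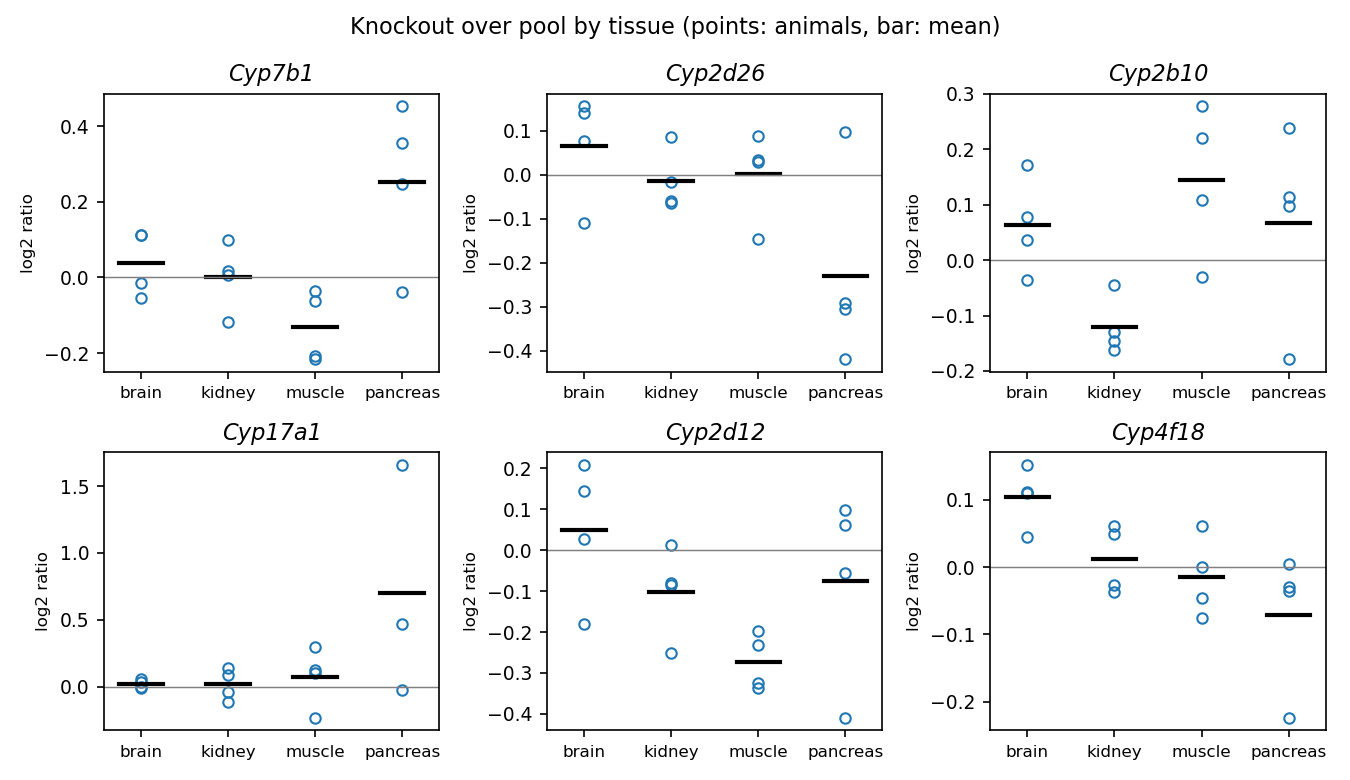
Log2 ratio (y axis, knockout over pool; the scale differs between panels) of each animal in brain, kidney, muscle and pancreas for the 6 P450 genes of smallest F test p, with bars for the mean. Cyp7b1 is lowest in muscle and highest in pancreas, Cyp2b10 is below 0 in all 4 kidneys, and Cyp17a1 in pancreas runs from −0.025 to 1.66 over 3 animals.

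Several P450 genes had opposite signs in the 2 dye orientations. A gene counted as opposed when all 4 Cy5 arrays of a tissue had one sign and all 4 Cy3 arrays the other. This held for Cyp4f13 in brain (1 of 25 P450 genes; all genes, 7.08%), for 0 of 25 in kidney (6.18%), for Cyp27a1, Cyp4a14 and Cyp4f13 in muscle (3 of 25; 12.8%) and for Cyp3a13, Cyp4a14 and Cyp4f16 in pancreas (3 of 24; 21.3%). Over the 4 tissues Cyp4f13 was above 0 on 13 of 16 Cy5 arrays and on 0 of 16 Cy3 arrays. Cyp4a14 went the other way, above 0 on 2 of 16 Cy5 arrays and 15 of 16 Cy3 arrays. In pancreas its Cy5 values were −0.64, −0.39, −0.29 and −0.66 and its Cy3 values 0.65, 0.44, 0.32 and 0.59, so that the animals averaged only −0.037 to 0.023. The mean of the Cy5 arrays and the mean of the Cy3 arrays had opposite signs for 15 of 25 P450 genes in brain (all genes, 63.3%), 16 of 25 in kidney (68.0%), 13 of 25 in muscle (65.6%) and 17 of 24 in pancreas (78.7%). The difference between orientations kept 1 sign in all 4 tissues for 11 of 24 P450 genes (all genes, 54.7%).

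With the Cy3 arrays turned, limma called 4 P450 genes in pancreas, where 14.6% of all genes were called: Cyp4f13 at 0.66 ± 0.10 (adjusted p = 0.0357), Cyp4a14 at −0.50 ± 0.093 (0.0388), Cyp3a11 at 0.60 ± 0.12 (0.0409) and Cyp2j9 at 0.53 ± 0.11 (0.0441; SE, n = 4 each). In muscle 0 were called (all genes, 1.97%), with Cyp4a14 at −0.35 ± 0.059 (adjusted p = 0.0546) closest, and 0 in brain (0.00598%) and kidney (0.0%). In brain minus pancreas, 2 were called (9.29%), Cyp2j9 at −0.45 ± 0.11 (adjusted p = 0.0266) and Cyp3a13 at −0.38 ± 0.11 (adjusted p = 0.0463). Which way the deposited Cy3 ratios run was not given in the sources used here. If all ratios run knockout over pool, the values over 8 in size have the Cy3 channel low in both dye orientations. Turned means then measure the difference between the orientations and not the knockout. If the Cy3 arrays need turning, the values over 8 in size have the pool low in both orientations.

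**Figure D4:**
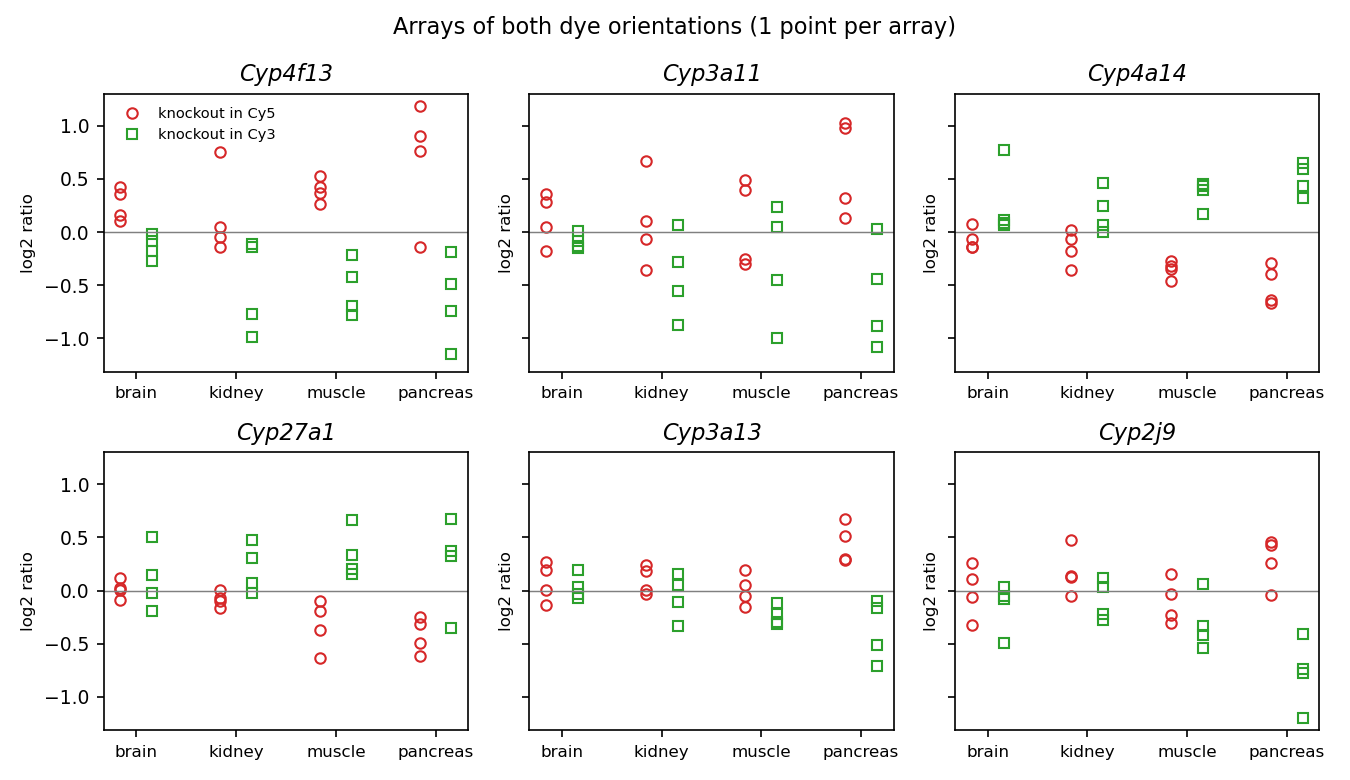
Log2 ratio (y axis) of 6 P450 genes on each of the 32 arrays, by tissue (x axis), with circles for arrays with the knockout in Cy5 and squares for arrays with the knockout in Cy3. Cyp4f13 has circles mostly above 0 and all 16 squares below, Cyp4a14 and Cyp27a1 run the other way, and for each of the 6 genes the distance between the mean of the circles and the mean of the squares is widest in pancreas.

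Genes that work with P450 enzymes were read from 7 lists. In each list and tissue 0 genes passed an adjusted p of 0.05 by limma, the same as over all genes, and the medians lay between −0.086 and 0.031. Of the receptors and regulators that control P450 genes, 20 were tested in brain, muscle and pancreas and 21 in kidney, and 11, 5, 8 and 9 of them, in that order, were above 0. The lowest list median was theirs in muscle, and Nr1h4, the bile acid receptor FXR, averaged 0.22 ± 0.073 (SE, n = 4, adjusted p = 0.647 by limma) there, above 0 in all 4 animals. Of 15 electron donors and heme enzymes, 11 were above 0 in kidney, 9 in pancreas, 4 in brain and 3 in muscle. Among these, Fdx1 is the ferredoxin that serves mitochondrial P450 enzymes such as Cyp11a1 and Cyp27a1. It averaged −0.14 ± 0.048 in brain and −0.14 ± 0.052 in kidney (SE, n = 4 each, adjusted p = 0.773 and 0.525 by limma). Fdx1 was below 0 in all animals of both tissues. Nr1h4 and Fdx1 were picked as the smallest p of their list in these tissues. All animals shared 1 sign for 15.9% of all genes in brain, 20.1% in kidney and 19.5% in muscle.

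The remaining lists also held 0 genes past the adjusted threshold, but some of their genes had larger means. Picked as the smallest p of a list and tissue, Sult2b1 averaged −0.97 ± 0.26 in pancreas and Alox12e −0.74 ± 0.16 in brain. In muscle Sult4a1 averaged 0.52 ± 0.11 and Hsd17b12 0.39 ± 0.10 (SE, n = 4 each, adjusted p of each 0.538 or higher by limma). Of conjugating enzymes and other oxidases, 17 of 26 were above 0 in brain and 11 of 26 in kidney. In muscle 16 of 26 and in pancreas 13 of 25 were above 0. In brain, kidney, muscle and pancreas 0, 5, 2 and 2 of them had an unadjusted p under 0.05. The shares of all genes were 4.13%, 9.28%, 7.29% and 2.91%. Of eicosanoid partners, 6, 10, 6 and 9 of 16 were above 0 in brain, kidney, muscle and pancreas, and of steroid hormone partners 12, 8, 10 and 8 of 17. Star, which carries cholesterol to Cyp11a1, averaged 0.40 ± 0.20 in pancreas (SE, n = 4, adjusted p = 0.991 by limma), above 0 in 3 of 4 animals. Of the partners in cholesterol and bile acid synthesis, 13 of 19 were above 0 in brain, 9 of 20 in kidney, 7 of 19 in muscle and 9 of 18 in pancreas, and of retinoid and vitamin D partners 7, 10, 7 and 6 of 15.

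Markers of cell types that express P450 genes were read beside these values. Of 5 proximal tubule markers, the main site of P450 enzymes in kidney, 4 were below 0 in kidney (median −0.054), and Slc22a6, an organic anion transporter, averaged −0.33 ± 0.052 (SE, n = 4, adjusted p = 0.476 by limma). Of 9 hepatocyte markers, 6 were above 0 in pancreas (median 0.046) and 7 in kidney (median 0.030). In pancreas 3 of 4 acinar markers, 3 of 4 islet markers, 5 of 5 lymphocyte markers and 2 of 6 adipocyte markers were above 0. In muscle 3 of 8 fibre markers and 3 of 7 endothelial markers were above 0, and in brain 5 of 8 markers of neurons and glia. The endothelial marker Tek averaged 0.595 ± 0.137 in muscle and the adipocyte marker Fabp4 −0.258 ± 0.076 in pancreas (SE, n = 4 each). Their adjusted p values by limma were 0.538 and 0.991. Like Slc22a6, both were picked as the smallest p of their list and tissue. No marker passed an adjusted p of 0.05, and the part of these cells in the P450 values was not tested.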

How the data were processed

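RNA of brain, kidney, muscle and pancreas from 4 Nox4 knockout mice was compared with a wild-type pool on 32 two-channel cDNA arrays, 2 per animal and tissue with the dyes exchanged. Total RNA (20 µg) was labelled indirectly after reverse transcription, per the labels' protocols. For each probe and array the authors deposited a log2 ratio. That the base is 2 was read from their size. How the arrays were scanned, corrected and normalised is not given in the sources used here. Signal over background was not used here, so a gene near background in a tissue could not be told from an expressed one. The ratios of such a gene may say little about the enzyme. Precision is further limited by how many arrays there are.

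Probes with 1 gene symbol (12771 of 20794; 8023 had none and 0 had several) were averaged per symbol, giving 17053 genes and unnamed probes. The 2 arrays of an animal were then averaged, both being needed. In each tissue limma (version 3.58.1, R 4.3.3; lmFit and eBayes) tested the mean against 0 (two-sided) wherever 3 or 4 animals had a value, with Benjamini-Hochberg adjustment over all genes at 0.05. The pool is 1 control sample, so the spread between wild-type mice is left out. Between tissues 1 fit over 16 animal and tissue values gave 6 contrasts and an F test. SE is that of limma and SD the plain spread between animals. The scripts were tested on simulated data.

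Tissues are paired by animal, since the labels name the same mice for each. Deviations of an animal from its tissue means correlated between tissues at r from −0.097 to 0.15 over genes, and the animal as a block was an alternative.

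P450 genes and the gene lists were chosen with earlier results of these data known. Genes named from the lists and markers had the smallest unadjusted p of their list and tissue. By tissue the text names P450 genes with an unadjusted p under 0.05, those with 1 sign on all 8 arrays, the 3 highest and 3 lowest means, those with values over 8 in size and the 6 of smallest F test p, and further P450 genes chosen after their values were seen. Symbols (all 26 found) and promoters are from RefSeq, GRCm38.p6. Alternatives were values over 8 as missing, the Cy3 arrays turned, centred or scaled arrays, each dye orientation alone, other rules for missing arrays, single probes, a dye term with the animal as a random block, robust moderation, other choices of tissues and each animal left out.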

Additional observations from a re-analysis of the deposited data

Results flagged for a closer look

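Among 99 combinations of a P450 gene and a tissue with 4 animals, 3 had an animal that stood apart from the other animals by Dixon's test at 95%, where chance alone gives about 1 in 20. Cyp4f14 in pancreas of animal 1 had a mean log2 ratio of −8.09, against −0.051 to 0.23 in the other animals, and its Cy3 array carried the value −16.01. Cyp27a1, the sterol 27-hydroxylase, was at −0.48 in pancreas of animal 1, against 0.027 to 0.090 in the other animals, and both arrays of that animal were below 0, at −0.62 and −0.35. Cyp4f16 in brain of animal 3 was at 0.17, against 0.017 to 0.022 in the other animals. The arrays of those other animals were further apart than their means, at 0.41 on the Cy5 array and −0.37 on the Cy3 array of animal 2.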

How the results depend on the processing

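Of 502 alternative values of single P450 genes and contrasts, 468 kept their direction and their side of the threshold and 34 changed sign. The 502 do not take in every P450 gene, tissue and contrast. The calls of Cyp4f13, Cyp4a14 and Cyp3a11 in pancreas with the Cy3 arrays turned are outside them. So are those of Cyp2j9 and Cyp3a13 in brain minus pancreas. Of 182 alternative counts and medians, 167 kept the reported count or, for medians, stayed within 1 SD of the median between animals, and 15 did not. With the animal as a replicate block, 0 P450 genes passed in each of the 6 contrasts, as without it, and the block changed no call of a P450 gene; over all genes it gave 0 calls in place of 75 in brain minus muscle, 0 in place of 2 in kidney minus muscle and 21 in place of 94 in muscle minus pancreas. For the contrast of Cyp7b1 in muscle minus pancreas, the adjusted p ranged from 0.0864 with values over 8 as missing to 0.982 with the Cy3 arrays turned.

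Turning the Cy3 arrays gave 4 called P450 genes in pancreas and 2 in brain minus pancreas, and medians of −0.0154 in brain, 0.0009 in muscle and 0.0446 in pancreas. It reversed, in brain, Cyp4f18 (−0.041), Cyp2d10 (−0.024), Cyp4a14 (−0.16) and Cyp2j9 (0.072). In kidney it reversed Cyp4f13 (0.33), Cyp4f14 (−0.052), Cyp3a11 (0.25), Cyp2d22 (−0.034) and Cyp27a1 (−0.14), and in muscle Cyp2d12 (0.0073) and Cyp11a1 (−0.039). In pancreas it reversed Cyp2j9 (0.53), Cyp7b1 (−0.018), Cyp2d26 (0.045), Cyp21a1 (−0.17) and Cyp4f14 (1.77). Among contrasts it reversed Cyp3a13 in brain minus muscle (−0.10), Cyp2d26 in brain minus pancreas (−0.060) and in muscle minus pancreas (−0.044), and Cyp2j9 (−0.40) and Cyp7b1 (0.069) in kidney minus pancreas.

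On the Cy5 arrays alone the medians were 0.043 in kidney and 0.0655 in pancreas, and Cyp4a14 in brain (−0.070), Cyp4f13 (0.15), Cyp3a11 (0.089) and Cyp27a1 (−0.081) in kidney and Cyp2j9 in pancreas (0.27) changed sign. On the Cy3 arrays alone the medians were −0.046 in kidney, −0.0095 in muscle and −0.0821 in pancreas, and Cyp2c70 in brain (0.15), Cyp4b1 in muscle (0.067) and Cyp2d10 in pancreas (−0.22) changed sign. With arrays centred and scaled the muscle median was −0.0181. With values over 8 as missing, Cyp4f14 in pancreas was at 0.044. Leaving out 1 animal at a time, the median ran from −0.0732 to −0.0192 in muscle and from −0.0296 to 0.0243 in pancreas. Single animals reversed Cyp2c70 (0.024) and Cyp2j9 (0.0355) in brain without animal 4, Cyp4b1 in muscle (0.0077) without animal 3 and Cyp4f14 in pancreas (0.044) without animal 1. Leaving out animals 1 to 4 in turn, Cyp4b1 in muscle ran from −0.32 to 0.0077 and Cyp4f14 in pancreas from −2.73 to 0.044. Apart from the values over 8, the cause of these changes was not tested.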
